A study of Mus musculus with 8 samples.

Results

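The genes described here are 6 markers of the formative and primed epiblast: Fgf5, Otx2, Foxd3, Pou3f1, Zic2 and Utf1. They were taken by name, as every non-control probe that the scanner files name for one of them. This gave 7 probes for 6 of the 30175 gene names on the array, with 1 probe per gene except for Otx2, which had 2. Embryonic stem cells (ESCs) resemble the naive epiblast of the early embryo. On the way to differentiation the epiblast passes through a formative state and then a primed state, in which naive genes are switched off, the Fgf pathway is active and the genes of germ layer specification become inducible. Fgf5, Otx2 and Pou3f1 are standard marks of this exit from the naive state.

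Gene expression was measured on 8 one-colour Agilent arrays of mouse E14 ESCs, 2 biological replicates (A and B) for each of 4 groups, 72 hours after lentiviral delivery of short hairpin RNAs. The groups were control KD (knockdown with a hairpin against GFP, a jellyfish gene), knockdown of Tip60 (Tip60 KD), knockdown of Hdac6 (Hdac6 KD) and knockdown of both (double KD). Tip60, encoded by Kat5, is the acetyltransferase of the Tip60-p400 chromatin remodelling complex, and Hdac6 is a deacetylase. All groups share 1 cell line and the lentiviral infection, each knockdown used a single hairpin chosen for its efficiency, and RNA came from whole cultures, so that fewer cells of a kind and less RNA per cell cannot be told apart. The comparisons ask whether loss of Hdac6 moves the epiblast markers as loss of Tip60 does, and whether losing both moves them further.

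Values are log2 of the processed signal divided by the 75th percentile of its array, so 0 stands for a signal at that percentile. They were raised to a floor of -2.71, below which the arrays could not be compared. Levels of different probes cannot be set against each other. The labels fitted the targeted genes. The log2 change of Kat5 against control KD was -1.35 for Tip60 KD (limma adjusted p = 0.0011) and -1.31 for double KD. Hdac6 itself changed by -2.49 after its own knockdown, by -1.87 after both, and by -0.44 after Tip60 KD alone (adjusted p = 0.00622). All 8 genes of a list of core pluripotency factors, which includes the marker Utf1, were detected on the arrays. The median background that the software subtracted was 61 and 114 intensity units on the control KD arrays and 37.2 to 89.0 on the knockdown arrays, and the part of this difference in the results for dim probes was tested only through the alternatives named beside them.

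The probes decide which stretch of each transcript was read, so the 30 bases at the start of 4 of the 60-base probes are shown for the genes on which the results turn. The Fgf5 probe lies at chr5:98705980-98706039 of build mm9, the Foxd3 probe at chr4:99325170-99325229, and the Otx2 probes at chr14:49277855-49277914 and, 7097 bases away in the upstream direction of this minus-strand gene, at chr14:49284952-49285011. Capitals mark a probe whose 60 bases all match a RefSeq promoter window of its own gene (build GRCm38.p6, 250 bases before to 50 bases after a transcription start).
Fgf5: atggagatctatgaagtataagtgttcacc
Foxd3: ctctgcgcagttttatctgagaaaaagaat
Otx2, downstream probe: tttcagggctgtgtggattgtgcgactgat
Otx2, upstream probe: GGGACGTGTGCCCCTCGGATTATCTCGTTA
The match of the upstream Otx2 probe ran from base -227 to base -168 relative to 1 of 4 annotated Otx2 starts, in the window chr14:48665060-48665359 of GRCm38.p6. The probe thus lay before that start and after 2 of the other annotated starts. The remaining probes lay at chr4:124337692-124337751 for Pou3f1, chr14:122879296-122879355 for Zic2 and chr7:147130950-147131009 for Utf1, all in mm9.

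Of the 6 genes, 5 could be tested. Foxd3, Pou3f1, Zic2, Utf1 and the downstream probe of Otx2 were well above background on all 8 arrays, whereas Fgf5 and the upstream probe of Otx2 lay under the floor on every array and are described apart. Foxd3 rose after every knockdown and by more than any of the other 4 tested genes, namely 5.51-fold (Tip60 KD), 3.06-fold (Hdac6 KD) and 4.96-fold (double KD). Zic2 rose in every knockdown by a modest amount, between 1.34-fold and 1.45-fold. Pou3f1 rose in Hdac6 KD and double KD, and Utf1 rose in Tip60 KD. The downstream probe of Otx2 did not pass the main test in any knockdown, but did in Tip60 KD and Hdac6 KD when the fit paired the replicate letters.

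At an adjusted p under 0.1 over the 18116 genes tested, 3 of the 5 genes were called in Tip60 KD (Foxd3, Zic2 and Utf1), all higher. Of all genes, 39.7% were called there and 19.7% were called higher. In Hdac6 KD 3 of 5 were called (Foxd3, Zic2 and Pou3f1), all higher, against 28.9% of all genes called and 14.0% called higher. In double KD the calls were again Foxd3, Zic2 and Pou3f1, all higher, against 32.8% called and 15.9% called higher. That was 2886 of 5939 calls, and with a low floor it was 3113 of 5003. In the same order of knockdowns, the median change of the 5 genes was 0.33, 0.47 and 0.42, beside medians over all genes of 0.06, 0.03 and 0.05. Each slide held 1 array of every group, and a fit with the slide (the replicate letter) as a block called all 5 genes in Tip60 KD and 4 in Hdac6 KD, where it called 60.9% and 53.0% of all genes. In double KD it called 3 of the 5 and 55.5% of all genes. Within slides, all 5 genes were higher than control KD on both slides after Tip60 KD, and all but Utf1 (4 of 5) after Hdac6 KD and after the double knockdown. The share of all genes higher on both slides was not counted, so these counts describe the 5 genes only.

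**Figure D1:**
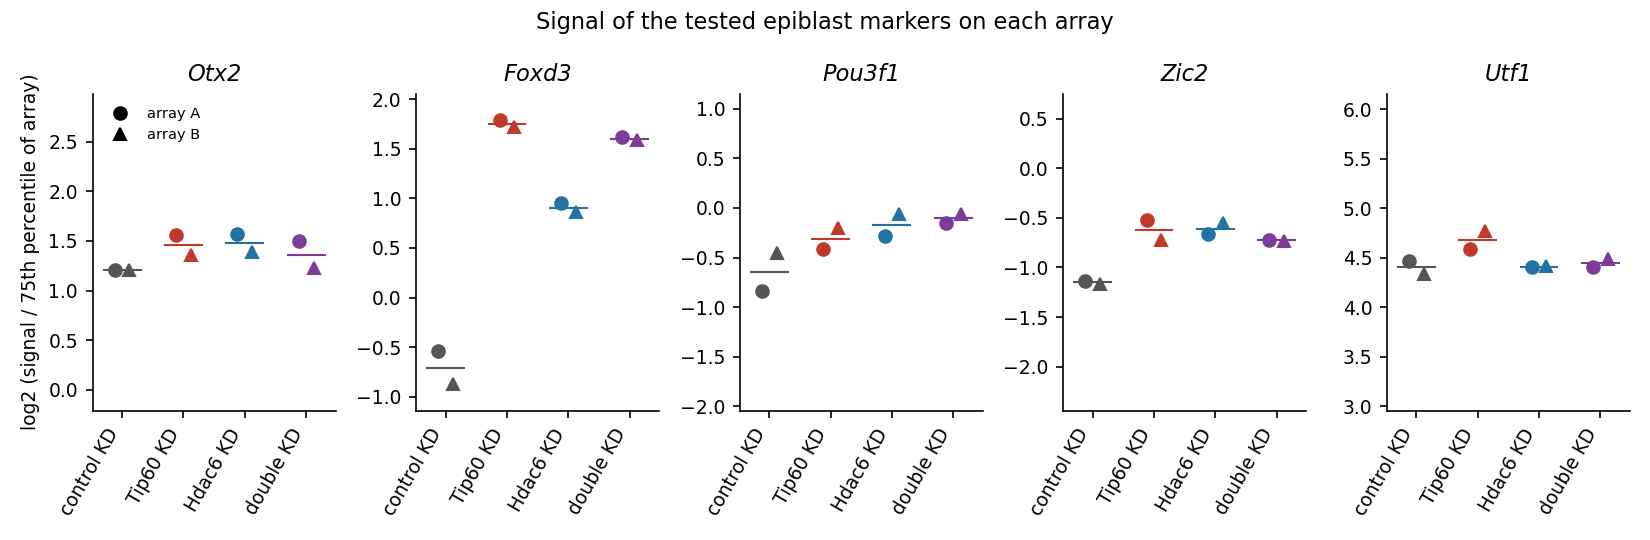
Log2 signal (relative to the 75th percentile of each array) of the 5 tested genes on each of the 8 arrays, with circles for replicate A, triangles for replicate B and lines for group means. Each panel spans the same number of log2 units on its own range. For Foxd3 the control KD arrays lay at -0.54 and -0.87 and every knockdown array at 0.86 or above.

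Foxd3 is a forkhead transcription factor that is present in naive cells and acts in the passage out of the naive state and later in the neural crest. Its log2 signal was -0.54 and -0.87 on the control KD pair (A, then B), 1.79 and 1.72 on the Tip60 KD pair, 0.95 and 0.86 on the Hdac6 KD pair and 1.61 and 1.59 on the double KD pair. No 2 groups overlapped, and the order from highest to lowest ran from Tip60 KD through double KD and Hdac6 KD to control KD. Against control KD the log2 change was 2.46 for Tip60 KD (SE 0.12, limma adjusted p = 0.000525), 1.62 for Hdac6 KD (SE 0.12, adjusted p = 0.002) and 2.31 for the double knockdown (SE 0.12, adjusted p = 0.00094). All 3 calls were kept under every alternative run. Slide by slide, the change was 2.33 and 2.59 for Tip60 KD, 1.50 and 1.73 for Hdac6 KD, and 2.16 and 2.46 for the double knockdown. Tip60 KD exceeded Hdac6 KD by 0.85 (SE 0.12, adjusted p = 0.0102), and double KD exceeded Hdac6 KD by 0.69 (SE 0.12, adjusted p = 0.0377). The last call was lost with either Hdac6 KD or either double KD array left out (adjusted p 0.154 to 0.203). The neighbours Tip60 KD and double KD were not told apart, with a difference of -0.15 (95% interval -0.45 to 0.15, adjusted p = 0.654).

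Foxd3 was the one gene of the 5 called between knockdowns. It was the 1 of 5 in Tip60 KD against Hdac6 KD, where 23.5% of all genes were called, and in double KD against Hdac6 KD, where 10.1% were called. With the replicate block Utf1 was called as well in Tip60 KD against Hdac6 KD (adjusted p = 0.0616), where the block called 41.5% of all genes. In double KD against Tip60 KD none of the 5 was called by limma, and none reached an unadjusted p under 0.05, against 3.71% of all genes called.

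The 250 bases upstream of the RefSeq start of Foxd3 (chr4:99656049-99656298 of GRCm38.p6, plus strand) are shown because this gene changed most among the 5 tested genes. Capitals mark matches, on either strand, to the motifs TGACGTCA (the cAMP response element) and CACGTG (the E-box read by Myc-type factors), which were chosen after the values were seen.
Foxd3 upstream: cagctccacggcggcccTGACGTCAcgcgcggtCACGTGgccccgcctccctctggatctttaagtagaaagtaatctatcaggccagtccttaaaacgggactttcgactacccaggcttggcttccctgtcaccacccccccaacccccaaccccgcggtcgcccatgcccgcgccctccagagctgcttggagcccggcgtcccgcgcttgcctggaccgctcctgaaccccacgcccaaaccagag
The matches begin at bases -233 and -217 from the start and do not overlap. The first motif was present in the upstream 250 bases of 1.55% of 32851 RefSeq promoter windows and the second in 6.02%. Neither was present in the windows of Fgf5 (1), Otx2 (4) or Utf1 (1). The GC box GGGCGG, which 32.7% of windows held, had 4 matches in the Utf1 window and 1 in that of Fgf5. The CCAAT box, held by 33.8%, had 1 match in the Otx2 windows. The TATA box, searched as TATAAA and held by 12.4%, also had 1 match there, and the Foxd3 window held no match to these last 3 motifs. Pou3f1 and Zic2 were not matched in this table. A match describes letters only.

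Zic2 is a zinc finger transcription factor of the epiblast and the neural plate that binds enhancers in ESCs. Its log2 signal was -1.13 and -1.17 on the control KD arrays, -0.53 and -0.72 on those of Tip60 KD, -0.66 and -0.56 on those of Hdac6 KD and -0.72 and -0.73 on those of double KD. Both control KD arrays lay below the 6 knockdown arrays, and the knockdown groups differed little from each other. The change was 0.53 for Tip60 KD (SE 0.09, adjusted p = 0.00874), 0.54 for Hdac6 KD (SE 0.09, adjusted p = 0.0136) and 0.42 for the double knockdown (SE 0.09, adjusted p = 0.024). The 95% interval of the difference between Tip60 KD and Hdac6 KD was -0.24 to 0.22. With 1 common background subtracted on every array, the changes were 0.43, 0.31 and 0.24, and the call in double KD was lost (adjusted p = 0.118). It was also lost on the authors' series matrix values (0.25, adjusted p = 0.103) and, at the threshold, without control KD B (0.41, adjusted p = 0.1).

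Pou3f1 (Oct6) is a POU domain transcription factor that partners Otx2 in the primed epiblast and marks the early neural lineage. Its log2 signal was -0.83 and -0.45 on the control KD arrays, -0.41 and -0.21 on those of Tip60 KD, -0.29 and -0.06 on those of Hdac6 KD and -0.15 and -0.06 on those of double KD. Replicate B lay above replicate A in all groups. The control KD arrays lay below all arrays of the other groups, with -0.45 next to -0.41 as the closest pair. The change was 0.47 in Hdac6 KD (SE 0.16, adjusted p = 0.0945) and 0.54 in double KD (SE 0.16, adjusted p = 0.0593). In Tip60 KD it was 0.33 (95% interval -0.06 to 0.73, adjusted p = 0.176), and it ran from 0.14 without control KD A to 0.52 without control KD B, where it was called (adjusted p = 0.0765). With the slide as a block all 3 changes were called (adjusted p 0.00678, 0.00383 and 0.0164 in the order given). The call in Hdac6 KD was lost when any array other than control KD B was left out, and its value fell to 0.28 without control KD A (adjusted p = 0.332). That in double KD was lost without control KD A or either double KD array (adjusted p 0.142 to 0.223). Both calls were also lost on the common background (0.38 and 0.44, adjusted p 0.202 and 0.139), with a low floor, with no filter on dim probes and in a fit of the compared arrays alone, and that in Hdac6 KD was lost on the series matrix values (0.37, adjusted p = 0.126).

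Otx2 is a homeodomain transcription factor that drives the step from the naive to the formative state and later specifies the forebrain. On the downstream probe its log2 signal was 1.21 on both control KD arrays, 1.56 and 1.36 on those of Tip60 KD, 1.57 and 1.39 on those of Hdac6 KD and 1.50 and 1.23 on those of double KD. Every knockdown array lay above both control KD arrays, and replicate A lay above replicate B in each knockdown by about as much as the knockdowns lay above control KD. The change was 0.26 for Tip60 KD (95% interval -0.06 to 0.58, adjusted p = 0.2), 0.27 for Hdac6 KD (-0.05 to 0.59, adjusted p = 0.205) and 0.16 for the double knockdown (-0.16 to 0.48, adjusted p = 0.466). With the slide as a block the first 2 were called (adjusted p 0.0387 and 0.0377) and the third was not (adjusted p = 0.16), and the first 2 were called with quantile normalisation too (adjusted p 0.0642 and 0.0909). A rise above 1.51-fold lies outside the intervals without the block in each of the 3 knockdowns.

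Utf1 is a chromatin-associated factor of ESCs and the epiblast that falls sharply on differentiation. Its log2 signal was 4.47 and 4.34 on the control KD arrays, 4.58 and 4.77 on those of Tip60 KD, 4.41 and 4.41 on those of Hdac6 KD and 4.41 and 4.48 on those of double KD. Tip60 KD lay above all other arrays, and the other 3 groups overlapped. The change was 0.28 in Tip60 KD (SE 0.10, adjusted p = 0.079), which passed the threshold narrowly. It was 0.01 in Hdac6 KD (95% interval -0.23 to 0.24) and 0.04 in double KD (-0.19 to 0.28). The value in double KD moved with the processing. It was 0.29 with normexp correction followed by quantile normalisation (adjusted p = 0.0692). On the series matrix values it was 0.31 (adjusted p = 0.0938), and both passed the threshold. Leaving out single arrays ended the call in Tip60 KD in every case (adjusted p 0.108 to 0.288) but that of Tip60 KD A (adjusted p = 0.0656). The call was also lost with a low floor (adjusted p = 0.187), with the compared arrays alone (adjusted p = 0.173) and with no filter on dim probes (adjusted p = 0.117).

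**Figure D2:**
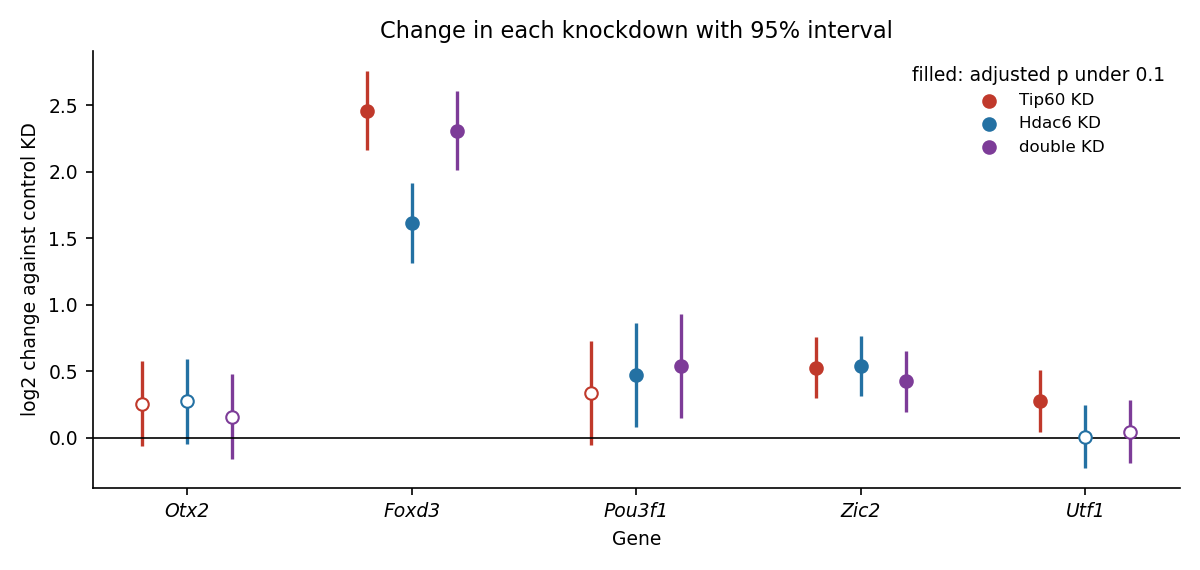
Log2 change against control KD for each tested gene (points), coloured by knockdown, with 95% intervals from the limma fit. Filled points passed an adjusted p under 0.1. Foxd3 changed by 2.46, 1.62 and 2.31, and no other tested gene changed by more than 0.54.

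Fgf5 is a secreted growth factor that is all but absent from naive cells. Its raw median intensity was 102 and 100 on the control KD arrays, 168 and 256 on those of Tip60 KD, 163.5 and 136.5 on those of Hdac6 KD and 184 and 158 on those of double KD. The median of the negative control spots was 33 to 37 on all arrays. Both control KD arrays were the lowest of the 8, and the knockdown groups overlapped. The software called the probe well above background on both Tip60 KD arrays, both double KD arrays and Hdac6 KD A, but not on Hdac6 KD B or on either control KD array. The processed signal therefore gives only rough bounds on the change. Averaged over the slides, Fgf5 lay 1.35-fold (Tip60 KD) and 1.50-fold (double KD) above a limit set for control KD. No bound is given for Hdac6 KD, where 1 of 2 arrays measured it. The limit was the lowest signal, of any probe, called well above background on each control KD array. The mean log2 signal of the knockdown arrays, before the floor, was set against it. These ratios carry no error estimate and rest on slide 1, where the same ratio was 2.78 for Tip60 KD and 3.41 for double KD. On slide 2 the Fgf5 signals of 0.0998 and 0.101 (in units of the 75th percentile) lay under the lowest signal well above background on control KD B, 0.153, so that no rise was bounded there.

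With a low floor (the lowest, over arrays, of the lowest signal well above background), dim probes entered the limma fit, and Fgf5 was called higher in double KD (adjusted p = 0.069) and after Tip60 KD (adjusted p = 0.0629). Its adjusted p was 0.134 for Hdac6 KD, which did not pass. Of all 28738 genes in that fit, 22.2%, 11.3% and 17.4% were called in Tip60 KD, Hdac6 KD and the double knockdown. No change is given from it, since neither control KD value was above background and that of control KD B was set to the low floor. On the series matrix values of all probes, Fgf5 changed by 0.97 in Tip60 KD (adjusted p = 0.116) and 0.56 in Hdac6 KD (adjusted p = 0.416). In double KD it was 0.91 (adjusted p = 0.191), and none passed. With the slide as a block Tip60 KD and double KD passed (adjusted p 0.058 and 0.0851), where 30.1% and 22.9% of all probes were called. Over all probes, only Tip60 KD passed on the common background (adjusted p = 0.0579), and none with normexp. The local background under the Fgf5 spot was 133 on Tip60 KD B, the array of its highest intensity, and 116 on control KD B, against 37.0 to 73.0 on the other arrays, and its part in that value was not tested.

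The upstream probe of Otx2 had raw median intensities of 129 and 197.5 on the control KD arrays, 185 and 234.5 on those of Tip60 KD, 195 and 269 on those of Hdac6 KD and 174 and 205 on those of double KD. On each slide every knockdown array exceeded the control KD array, while across slides the groups overlapped. The probe was well above background on all arrays except control KD B. On the log2 values of the series matrix, which rank the probes as the raw median signal does, and over all 39429 probes with no floor, its change was 0.30 for Tip60 KD (adjusted p = 0.249), 0.54 for Hdac6 KD (95% interval 0.22 to 0.86, adjusted p = 0.114) and 0.40 for the double knockdown (adjusted p = 0.199), and none passed the threshold. With the slide as a block all 3 passed (adjusted p 0.0906, 0.0312 and 0.0584), in a fit that called 30.1%, 22.2% and 22.9% of all probes. On the same values the downstream probe changed by 0.20, 0.19 and 0.10, in the same direction.

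**Figure D3:**
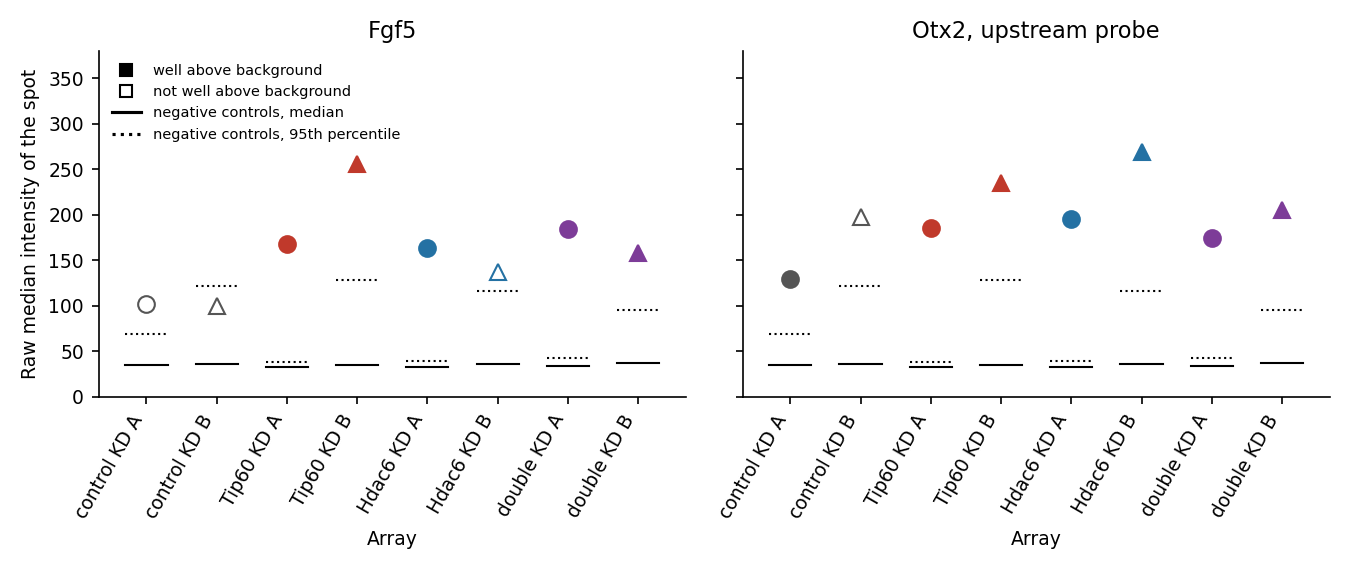
Raw median spot intensity of Fgf5 and of the upstream Otx2 probe on each array (circles for replicate A, triangles for B), with the median and 95th percentile of the negative control spots of that array as lines. Open symbols are spots not well above background. Fgf5 was lowest on the control KD arrays, at 102 and 100.

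Whether the knockdowns add was asked with the interaction contrast on the log2 scale, in which both single changes are subtracted from that of double KD. The value was below 0 for all 5 genes and was called for 2 of them, Foxd3 and Zic2, against 22.0% of all genes called and 10.9% called below the sum. Its median over all genes was -0.04, and the share of all genes below 0 was not counted. For Foxd3 the single changes sum to 4.08 and double KD showed 2.31, a difference of -1.77 (SE 0.17, adjusted p = 0.00791). It was -1.67 and -1.86 on the 2 slides. For Zic2 the sum was 1.07 and double KD showed 0.42, a difference of -0.64 (SE 0.13, adjusted p = 0.0307), with -0.66 and -0.62 on the slides. The Zic2 call was lost without Hdac6 KD B (adjusted p = 0.106). The interaction of Otx2 was -0.37 (95% interval -0.83 to 0.08, adjusted p = 0.244) and was called with the slide as a block (adjusted p = 0.0472), where 47.1% of all genes were called. For Pou3f1 the interval was -0.82 to 0.29 and for Utf1 -0.57 to 0.09. The Hdac6 transcript itself stood 0.62 higher (log2, adjusted p = 0.0147) where both genes were targeted than where Hdac6 alone was, and the part of this in the interaction was not tested.

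**Figure D4:**
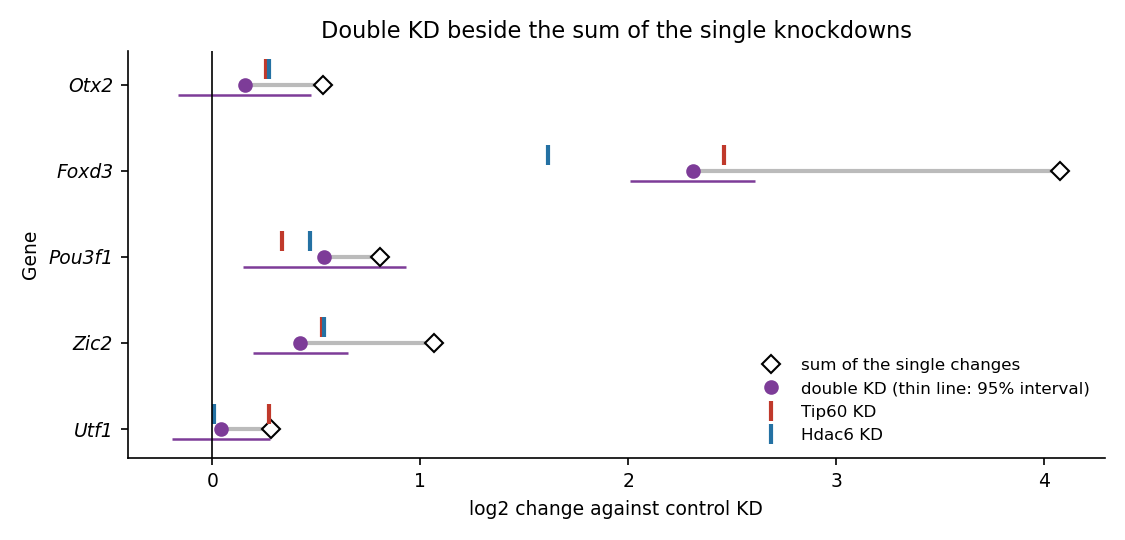
Log2 change against control KD in double KD (filled circles with 95% intervals), beside the sum of the single knockdown changes (diamonds) and the single changes (ticks), for the 5 tested genes. For Foxd3 double KD stood at 2.31 and the sum at 4.08.

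The genes whose log2 signal followed each marker most closely over the 8 arrays were taken from those above the floor on all arrays whose group means spanned at least 1. For Foxd3 the likest were Inhbb, Nmnat1 and Snx7 (Pearson r 0.997, 0.995 and 0.995, among 1161 candidates). Zic2 was followed by Pnp and Srsf6 (r 0.979 and 0.973), and for Pou3f1 they were Fjx1, Lats2 and Eef1akmt1 (r 0.942, 0.894 and 0.882). Utf1 was followed by Pik3c3, 4933417G07Rik and Ctr9 (r 0.922, 0.887 and 0.875). Among the 1162 candidates for Otx2, none with a RefSeq symbol followed it more closely than Gm17776 (r 0.882). These coefficients describe 8 arrays in 4 groups on shared slides and carry no test.

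Of 24 other genes known to rise in formative or primed cells, 19 could be tested, and they moved both ways. After Tip60 KD 9 rose and 5 fell (median change 0.07), after Hdac6 KD 11 rose and 1 fell (median 0.47), and after both knockdowns 9 rose and 3 fell (median 0.29). Of all genes, 39.7%, 28.9% and 32.8% were called either way in these 3 comparisons. Tip60 KD and Hdac6 KD differed for 14 of the 19, with Tip60 KD lower for 10 and higher for 4, where 23.5% of all genes were called. Sall2, a zinc finger factor, rose by 1.48 in Tip60 KD from control values at the floor, a change that depends on where the floor lies, and Nodal, the ligand that holds epiblast identity, rose by 1.42 there and by 0.47 in Hdac6 KD. Etv4, an Ets factor downstream of Fgf signalling, rose by 0.84 and 0.92. Cldn6, a tight junction protein, changed by -1.27 in Tip60 KD and by -1.15 in double KD, and its value in Hdac6 KD was -0.23 (adjusted p = 0.2). Of the 24, T, Cer1, Fst and Foxa2 had no value above the floor on any array.

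**Figure D5:**
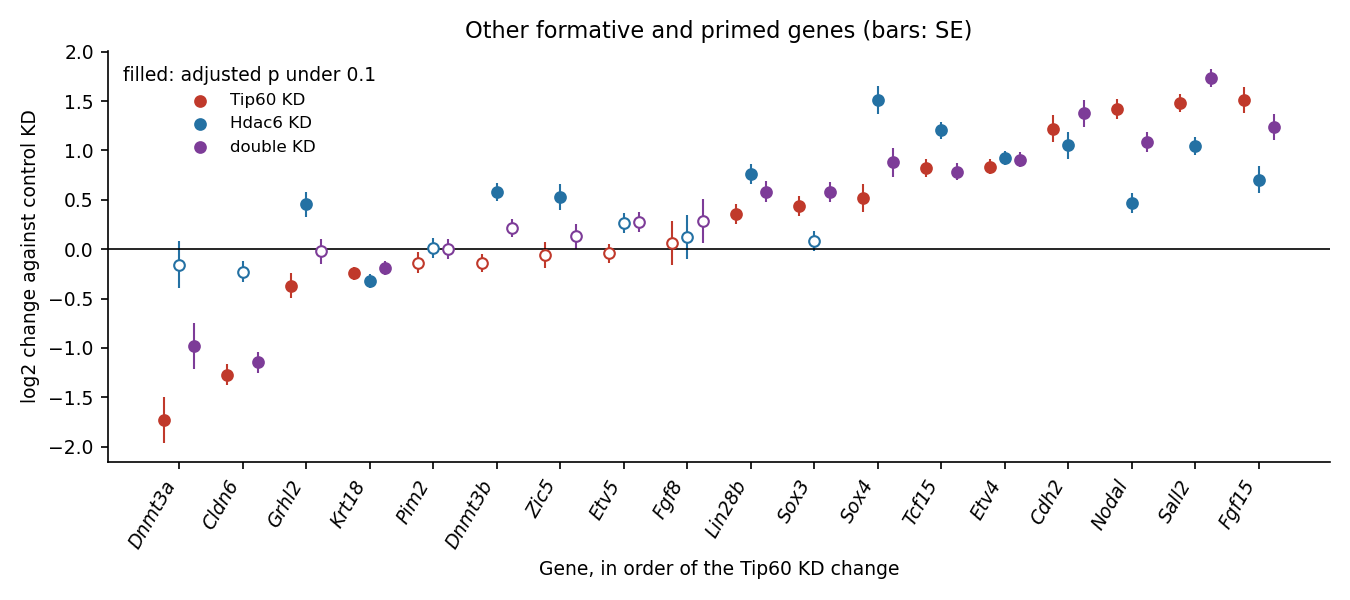
Log2 change against control KD (points, with SE bars) of tested formative and primed genes outside the marker set (1 of the 19 is not drawn), ordered by their change in Tip60 KD, with filled points for an adjusted p under 0.1. In Tip60 KD the changes run both ways, as for Nodal (1.42) and Cldn6 (-1.27).

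All 17 naive genes were tested, Nanog and Fbxo15 without a value on Tip60 KD A. Tip60 KD raised 7 and lowered 3, Hdac6 KD raised 5 and lowered 1, and the double knockdown raised 7 and lowered 1 (median changes 0.14, -0.02 and 0.24). Of all genes, 39.7%, 28.9% and 32.8% were called either way in these 3 comparisons. With the slide as a block 13 of the 17 were called after the double knockdown, against 55.5% of all genes. Gbx2, a homeobox gene of naive cells, rose by 1.53 in Tip60 KD and by 1.56 in Hdac6 KD, Prdm14 rose by 1.01 and 0.48, and Pecam1 rose by 0.85 in Tip60 KD, while its value in Hdac6 KD was -0.20 (adjusted p = 0.197). Dppa3 (Stella), which is lost as cells leave the naive state, fell by 1.45 and 1.19. Of the 8 core pluripotency genes, which include Utf1 and Nanog, 5 rose in Tip60 KD and 3 rose in Hdac6 KD. After both knockdowns 3 of these core genes rose and 1 fell, and the shares of all genes called are those given above.

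Fgf5 acts through Fgf receptors, and all 11 genes of a list of receptors, Fgf4 and feedback genes were tested. Tip60 KD raised 1 and lowered 2, and both Hdac6 KD and the double knockdown raised 2 and lowered 2 (medians 0.03, -0.02 and 0.07). The shares of all genes called either way were 39.7%, 28.9% and 32.8%. With the slide as a block 6 of the 11 were called after Tip60 KD and 7 after Hdac6 KD, against 60.9% and 53.0% of all genes. Egr1, an immediate response gene, fell by 0.91 in Tip60 KD and by 0.36 in Hdac6 KD, the receptor Fgfr4 fell by 0.95 and 0.79, and Dusp6, a phosphatase that dampens Erk, rose by 0.56 in Hdac6 KD with a value of 0.21 in Tip60 KD (adjusted p = 0.186). Among 12 relatives of the transcription factors in the Otx, Foxd, Pou3f and Zic families, 4 could be tested, and 1 of them was called in Tip60 KD and 1 in Hdac6 KD, or 2 of 4 in each with the slide as a block, against the same shares of all genes. Zic5 rose by 0.53 in Hdac6 KD. Zic1 showed 0.56 in Tip60 KD (adjusted p = 0.122) and Zic4 0.10 (adjusted p = 0.892). Otx1, Crx, Foxd1, Foxd2, Pou3f2, Pou3f3 and Pou3f4 had no value above the floor.

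Of 12 neural markers 9 were tested, and 4 rose after Tip60 KD, 3 after Hdac6 KD (5 called with the block, against 53.0% of all genes) and 4 after both. Without the block, the shares of all genes called either way were 39.7%, 28.9% and 32.8%, here and for the lists that follow. The summed signal of the 9 neural markers, in units of the 75th percentile, was 4.01 to 4.17 on the control KD arrays and 7.74 to 7.79 with Tip60 KD. It was 5.03 to 5.16 with Hdac6 KD and 7.37 to 7.44 with both. This sum is weighted toward genes of high signal, led by Tubb3 and Ncam1, and the genes did not all follow it. Of the 9, 3 were called higher in Tip60 KD than in Hdac6 KD and 1 lower, against 23.5% of all genes called either way. Hes5 and Pax3 had no value above the floor. Of 8 fibroblast genes 4 were tested and 2 rose in Tip60 KD and in double KD, with summed signals of 1.84 to 2.08 on the control KD arrays, 2.50 to 2.96 with Tip60 KD, 1.94 to 2.02 with Hdac6 KD and 2.64 to 2.91 with both, and with Dcn, Postn and Twist2 at the floor. Of 8 trophectoderm genes 5 were tested and 2 rose and 3 fell in Tip60 KD, with Cdx2, Elf5 and Tpbpa at the floor, and of 8 mesoderm genes 3 were tested and 1 rose in Tip60 KD, with T, Mesp1 and Msgn1 at the floor. Of 8 endoderm genes 6 (Gata6, Foxa2, Sox7, Afp, Ttr and Cxcr4) were at the floor, and Gata4 and Sox17, which were tested with limma, were not called in any knockdown, with 0 at an unadjusted p under 0.05. The summed signals were 12.3 to 13.8 (control KD) and 6.09 to 6.90 (Tip60 KD) for trophectoderm and 1.07 to 1.37 and 1.67 to 1.71 for mesoderm. The trophectoderm sum is made up mostly of Tfap2c, the gene of highest signal in that list, which changed by -1.38 in Tip60 KD. Its fall therefore describes Tfap2c and not the list, in which 2 of the 5 tested genes rose. The part of other cell types in the marker changes was not tested.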

How the data were processed

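The authors labelled total RNA with Cy3 after amplification and hybridised it to Agilent mouse arrays, 1 sample an array. The deposited scanner files hold fluorescence intensity that Feature Extraction 10.7.1.1 computed, including a background-subtracted processed signal, and were not scaled across arrays. The series matrix deposited by the authors is in log2 units with column medians of 8.19 to 8.20. It ranks probes as the raw median signal does, and its normalisation is not given in the sources used here. After removal of outlier spots, each processed signal was divided by its array's 75th percentile, set to at least 0.153 and put on the log2 scale. This floor is the highest, over arrays, of the lowest signal called well above background. Probes had to exceed background and floor on 2 or more arrays, and each gene was read from its kept probe of highest signal, which left 18116 genes. Of their values 8.97% were at the floor.

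Differences were tested by limma 3.58.1 under R 4.3.3 (linear fit, then eBayes), using all 8 arrays at once and no block. The test was 2-sided, with Benjamini-Hochberg adjustment over all genes and a threshold of 0.1. Residual degrees of freedom were 4 and prior ones 1.84, so precision is limited by the number of arrays. All adjusted p-values are limma's. The study's methods call the replicates biological but do not say what was separate, so p-values measure the spread between these arrays, which may be technical. The fit was tested on simulated data. The alternatives were other background corrections, scalings, floors, filters and thresholds, other rules for probes, the slide as a block, the compared arrays alone, and each array left out. Fits of all probes without filter, used for Fgf5 and the upstream Otx2 probe, were added after seeing the data. Those on the series matrix values had no floor. Figures were made with Python 3.11.15 and matplotlib 3.10.9.

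Replicate letters coincided with the slides, each of which carried 1 array per group. The A minus B differences correlated over genes in all 6 pairs of groups (r 0.651 to 0.799), so the letters were taken to pair the arrays. A group kept 1 position on both slides, so position and group cannot be told apart.

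The markers and lists were chosen with earlier results of these data known. Named are the markers, Kat5 and Hdac6, the 3 genes likest to each marker in Pearson r (among genes above the floor on all arrays with group means spanning at least 1), and from the epiblast, naive, Fgf and family lists the 4 genes with the lowest p after Tip60 KD. For other lists, counts and the genes at the floor are given. The rule also allows the 2 genes of highest signal, which are named only for the neural, trophectoderm and endoderm lists. A few genes that this rule names are not reported here. RefSeq tables (GRCm38.p6) updated the symbols of 27234 of 39429 probes and gave the promoters. Probe positions are those of the files (mm9).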

Additional observations from a re-analysis of the deposited data

Results flagged for a closer look

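The change in double KD differed from the sum of the single knockdown changes for 2 of the 5 tested markers. For Foxd3 the difference was -1.77 on the log2 scale, and for Zic2 it was -0.64. The Hdac6 transcript fell less in double KD (-1.87) than in Hdac6 KD (-2.49), and the part of this in the differences was not tested. Groups of 2 arrays are too small to look for an array that stands apart.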

How the results depend on the processing

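The direction of every called change of Foxd3, Zic2, Pou3f1 and Utf1 against control KD was kept under all alternatives run. With a minimum of 2-fold, the number of markers called was 1 in Tip60 KD, 1 in Hdac6 KD, 1 in double KD and 1 in the interaction, and 0 both in double KD against Hdac6 KD and in Tip60 KD against Hdac6 KD, since only Foxd3 exceeded that size. With the replicate block 5 markers were called in Tip60 KD and 2 in Tip60 KD against Hdac6 KD, and beyond the calls given above the block changed none of the markers' calls. The common background left 1 called in double KD. A low floor, which admits dim probes and moves the median change of all genes to 0.25, 0.18 and 0.27 in the 3 knockdowns, left 0 in double KD against Hdac6 KD and 1 in the interaction, and a fit of only the arrays compared left 0 in double KD against Hdac6 KD. Requiring values above the floor on all arrays gave 2 in Tip60 KD against Hdac6 KD. Leaving out 1 array at a time gave 2 to 3 markers called in each knockdown against control KD, 0 to 1 in double KD against Hdac6 KD, 1 in Tip60 KD against Hdac6 KD, 0 in double KD against Tip60 KD and 1 to 2 in the interaction. The cause of these shifts was not tested.

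Differences near 0 that had not been called changed sign. Tip60 KD against Hdac6 KD for Otx2 was 0.014 with normexp, 0.0099 with quantile normalisation and 0.0158 on the series matrix values, and for Zic2 it was 0.0577 with normexp, 0.11 on the series matrix values and 0.12 on the common background. With 1 array left out that contrast ran from -0.12 to 0.0829 for Otx2 and from -0.11 to 0.0847 for Zic2, double KD against Hdac6 KD from -0.26 to 0.0182 for Otx2, from -0.0453 to 0.18 for Pou3f1 and from -0.00189 to 0.0735 for Utf1, double KD against Tip60 KD from -0.24 to 0.0361 for Otx2, and for Utf1 Hdac6 KD against control KD from -0.0554 to 0.0706 and double KD against control KD from -0.0196 to 0.11. Signal over background limits Fgf5 and the upstream Otx2 probe.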
